A study of Mus musculus with 4 samples.

Results

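The genes described are 10 transcriptional targets of p53 in mouse colon tumours: Cdkn1a, Ccng1, Mdm2, Bax, Bbc3, Eda2r, Phlda3, Sesn2, Zmat3 and Trp53inp1. They were taken by gene symbol from tables of read counts that list 26214 symbols, and 10 of 10 were found and passed the filter on low counts. The tumours had been induced with the carcinogen azoxymethane plus dextran sulfate sodium, an agent that damages the colon lining. The series holds 2 libraries labelled IEC-/- for Gsk3b, the kinase gene removed from intestinal epithelial cells, and 2 labelled IEC+/+, all from colon cancer tissue treated with both agents. The Cre driver, the deleted exons, the strain and the ages of the mice are not given in the labels, nor whether each library is a mouse of its own; p-values therefore reflect library-to-library spread, which may be technical.

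p53 is a transcription factor that is kept scarce by MDM2, a ubiquitin ligase that marks it for degradation, and that accumulates after DNA damage and other stresses. It then switches on genes that halt the cell cycle, trigger cell death, limit oxidative damage and, through Mdm2 itself, shut the response off again. GSK3B phosphorylates both p53 and MDM2, and in the intestinal epithelium p53 targets are known for their response to damage in crypts. The comparison asks how the loss of GSK3B from the epithelium bears on the tumour transcriptome.

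p53 binds a response element made of a pair of decamers, short palindromic motifs of 10 bases that read alike on both strands. RefSeq windows on GRCm38.p6, each with 250 bases before a transcript start and 50 after it, were at hand for 8 of the genes, in 11 windows; Zmat3 and Trp53inp1 had none. A decamer that fits the p53 consensus exactly was present in 4 of the 11 windows, against 8.36% of all 32851 windows. Such a decamer stood in 1 window each of Cdkn1a, Bax, Mdm2 and Ccng1. A pair of decamers at most 13 bases apart, with both 4-base cores intact and at most 2 mismatches, was present in 2 of the 11, against 2.12% of all windows. The part of the 4 windows from 250 to 31 bases before the start is shown because each holds an exact decamer. Capitals mark exact decamers and the decamers of such pairs. The coordinates in order are chr17:29090729-29090948 on the plus strand, and chr7:45466929-45467148, chr10:117710789-117711008 and chr11:40755317-40755536 on the minus strand.
Cdkn1a: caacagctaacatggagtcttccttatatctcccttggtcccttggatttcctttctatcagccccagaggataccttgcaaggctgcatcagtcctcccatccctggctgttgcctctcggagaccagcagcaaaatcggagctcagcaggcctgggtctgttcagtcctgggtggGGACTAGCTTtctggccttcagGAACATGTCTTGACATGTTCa
Bax: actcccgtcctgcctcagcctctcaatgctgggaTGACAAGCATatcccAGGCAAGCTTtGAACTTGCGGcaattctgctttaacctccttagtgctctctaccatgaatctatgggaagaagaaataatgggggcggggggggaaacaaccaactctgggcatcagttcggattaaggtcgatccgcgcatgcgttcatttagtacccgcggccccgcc
Mdm2: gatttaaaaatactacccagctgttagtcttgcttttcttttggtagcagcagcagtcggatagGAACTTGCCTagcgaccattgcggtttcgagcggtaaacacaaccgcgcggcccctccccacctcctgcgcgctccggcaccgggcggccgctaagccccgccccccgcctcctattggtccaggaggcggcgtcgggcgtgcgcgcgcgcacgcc
Ccng1: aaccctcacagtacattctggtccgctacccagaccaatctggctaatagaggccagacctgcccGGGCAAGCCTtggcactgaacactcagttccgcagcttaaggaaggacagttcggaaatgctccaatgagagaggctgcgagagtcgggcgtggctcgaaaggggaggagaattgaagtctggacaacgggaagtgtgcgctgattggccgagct

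The Cdkn1a stretch held 2 overlapping pairs. One had its decamers directly adjacent, 51 bases before the start, with 1 mismatch, and the other began 73 bases before the start with 12 bases between its decamers and 0 mismatches. This window belongs to the upstream of 2 annotated starts. The Bax stretch held 2 pairs that share a decamer, with 1 and 5 bases between them and 2 mismatches each. A match is a description of the letters, and a window without one says nothing of sites elsewhere, such as those in introns.

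Depth was alike, with 25472503 to 27218515 counts per library. Gsk3b itself had 152 and 149 CPM (read counts relative to the scaled library size) in the IEC-/- libraries, against 170 and 157 CPM in the IEC+/+ libraries (edgeR quasi-likelihood adjusted p = 0.681), so this count does not check the labels. The epithelial genes Epcam and Cdh1 were present in all 4 libraries, which does not by itself mark the epithelium as colon. The summed level of 10 epithelial markers was 6614 and 6229 CPM in IEC-/- tumours, against 11008 and 9552 CPM in IEC+/+ tumours. Of the colonocyte markers, 4 of 9 fell by edgeR (Aqp8, Krt20, Clca4a and Slc5a8), where 0.763% of all genes did. The median log2 fold change of the 9 was -3.23. It was -3.43 and -3.51 without IEC-/- replicates 1 and 2, and -2.70 and -3.62 without IEC+/+ replicates 1 and 2. These markers summed to 134 and 111 CPM in the IEC-/- libraries and to 1060 and 617 CPM in the IEC+/+ libraries. Heat shock and immediate-early genes, which can respond to sample handling among other influences, summed to 1808 and 1623 CPM in the IEC-/- libraries. They summed to 2361 and 3454 CPM in the IEC+/+ libraries, and the cause was not tested. IEC-/- replicate 2 stood apart in squamous and in B and plasma cell markers, and IEC+/+ replicate 1 in smooth muscle and fibroblast markers. Summed levels of 8 squamous epithelium markers, a list chosen after the values were seen, were 29.3 and 2680 CPM in IEC-/- replicates 1 and 2, against 145 and 119 CPM in IEC+/+ tumours. B and plasma cell markers summed to 225 and 2544 CPM in IEC-/- tumours, against 586 and 703 CPM in IEC+/+ tumours, and neutrophil markers to 101 and 375 CPM in the IEC-/- libraries, against 120 and 207 CPM in the IEC+/+ libraries. Ly6g, the 1 neutrophil marker called, went the other way between the groups, at 12.2 and 15.2 CPM in IEC-/- tumours, against 66.4 and 62.5 CPM in IEC+/+ tumours (log2 fold change -2.23, edgeR adjusted p = 0.0322). Smooth muscle markers summed to 234 and 258 CPM in IEC-/- tumours, against 473 and 188 CPM in IEC+/+ tumours. Fibroblast markers summed to 2340 and 2018 CPM in IEC-/- tumours, against 3550 and 2185 CPM in IEC+/+ tumours. The lists had 0 to 2 genes at 0 counts in a library. The part of these cell types in the results that follow was not tested. In tissue libraries, fewer cells of a type and less RNA per cell cannot be told apart.

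**Figure D1:**
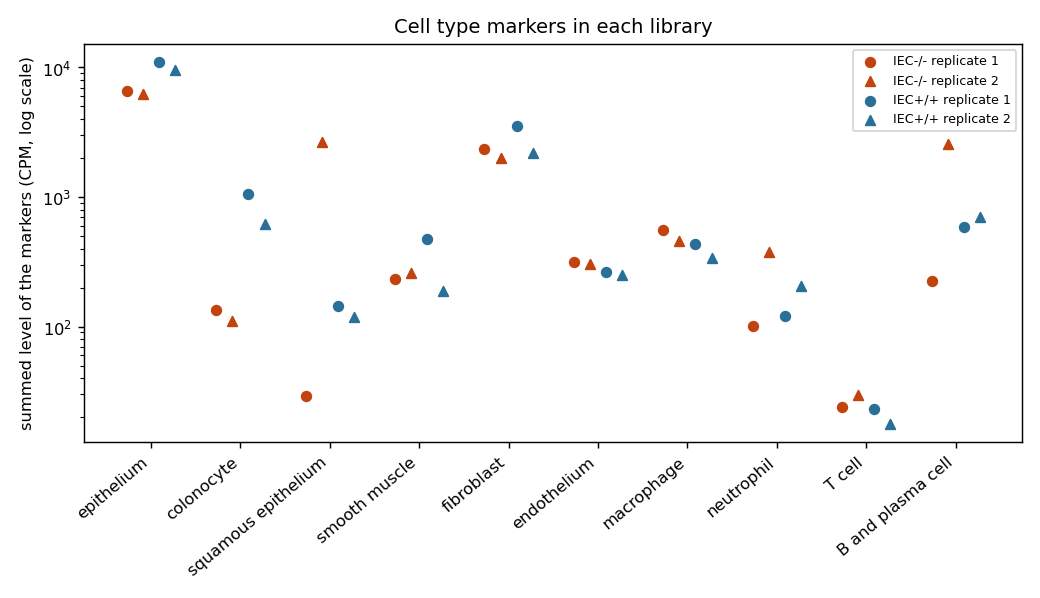
Summed level of the markers of 10 cell types in CPM on a log axis, with 1 point per library. IEC-/- replicate 2 lies at 2680 CPM for squamous epithelium and 2544 CPM for B and plasma cells, above the other libraries, and both IEC-/- libraries lie below both IEC+/+ libraries for epithelium and colonocytes.

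None of the p53 targets passed the test between the libraries labelled IEC-/- and IEC+/+. By the edgeR quasi-likelihood test with Benjamini-Hochberg adjustment over 16637 genes, 0 of 10 passed an adjusted p of 0.05, where 0.884% of all genes did (0.120% higher and 0.763% lower), and 0 had an unadjusted p under 0.05, where 16.6% of all genes did. DESeq2, the exact test of edgeR and limma-voom also called 0 of 10, with 7.77% of all genes called by DESeq2. In IEC-/- tumours 5 genes had higher means and 5 lower means, and the median log2 fold change was -0.02, beside 0.01 over all genes tested. Single log2 fold changes ran from -0.46 to 0.34, with adjusted p-values of 0.448 to 0.974. Without IEC-/- replicate 2, 1 of 10 passed, where 3.32% of all genes did, and the median log2 fold change was -0.31. The levels of the 2 groups did not overlap for 3 of the 10 genes, fewer than the 48.0% of all genes for which this was so. A p that misses the threshold does not show equal levels, and the 95% intervals below say which differences remain possible.

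Both cell cycle arrest genes had lower means in IEC-/-, and neither passed the test. Cdkn1a (chromosome 17, 29090979 to 29100722, GRCm38) encodes p21, the inhibitor of cyclin-dependent kinases through which p53 halts cells before DNA replication. It had 141 and 274 CPM in IEC-/- tumours, against 310 and 257 CPM in IEC+/+ tumours. The groups overlap, since IEC-/- replicate 2 lies between the IEC+/+ libraries and only IEC-/- replicate 1 is low. The mean was 208 ± 94.0 CPM in IEC-/- tumours and 284 ± 37.8 CPM in IEC+/+ tumours (SD, n = 2 each), giving a log2 fold change of -0.45 (SE 0.32, edgeR adjusted p = 0.547), and the 95% interval of the fold, IEC-/- over IEC+/+, was 0.423 to 1.27. Without IEC-/- replicate 2 the log2 fold change was -1.01 and passed (edgeR adjusted p = 0.0361), with the remaining IEC-/- library assumed to vary like the IEC+/+ libraries.

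Ccng1 (chromosome 11, 40748552 to 40755309) encodes cyclin G1, which recruits a phosphatase to MDM2. It had 155 and 220 CPM in IEC-/- tumours, against 224 and 248 CPM in IEC+/+ tumours. Both IEC-/- libraries lie below both IEC+/+ libraries, though IEC-/- replicate 2 by little, and 24.1% of all genes show such an order. The mean was 187 ± 45.4 CPM in IEC-/- tumours and 236 ± 17.0 CPM in IEC+/+ tumours (log2 fold change -0.33, SE 0.19, edgeR adjusted p = 0.461), and the ratio's 95% interval was 0.571 to 1.11.

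Mdm2 (chromosome 10, 117688875 to 117710758), the feedback inhibitor, had the smallest fold change of the 10. It had 70.0 and 86.3 CPM in IEC-/- tumours, against 82.0 and 72.3 CPM in IEC+/+ tumours. The IEC-/- libraries lie on either side of the IEC+/+ libraries. The log2 fold change was 0.02 (SE 0.15, edgeR adjusted p = 0.974), with a 95% interval of the ratio from 0.778 to 1.32.

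Targets that act in cell death overlapped between the groups in 4 of 4 cases, where 48.0% of all genes did not overlap. Bax (chromosome 7, 45461695 to 45466903), a pore-forming BCL2 family protein of the mitochondrial membrane, had 57.1 and 89.1 CPM in IEC-/- tumours, against 61.7 and 76.8 CPM in IEC+/+ tumours. Bbc3 (chromosome 7, 16308398 to 16318334) encodes PUMA, a BH3-only protein that unleashes BAX, and had 17.2 and 28.5 CPM in IEC-/- tumours, against 16.1 and 21.7 CPM in IEC+/+ tumours. In both genes IEC-/- replicate 2 is the highest of the 4 libraries and IEC-/- replicate 1 is near the lower IEC+/+ library. Their log2 fold changes were 0.08 (SE 0.24) and 0.27 (SE 0.30), and the ratio's 95% intervals were 0.696 to 1.60 for Bax and 0.715 to 2.04 for Bbc3. Without IEC-/- replicate 2 the log2 fold changes were -0.28 for Bax and -0.14 for Bbc3.

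Eda2r (chromosome X, 97333837 to 97377234) encodes a death-domain-lacking receptor of the TNF receptor family that binds ectodysplasin A2. It had 14.4 and 30.9 CPM in IEC-/- tumours, against 26.4 and 36.1 CPM in IEC+/+ tumours. Phlda3 (chromosome 1, 135766085 to 135769134), whose product blocks the survival kinase AKT at the membrane, had 54.5 and 125 CPM in IEC-/- tumours, against 88.6 and 98.6 CPM in IEC+/+ tumours. For both, IEC-/- replicate 1 is the lowest library, and for Phlda3 IEC-/- replicate 2 is the highest. The log2 fold changes were -0.46 (SE 0.38) for Eda2r and -0.06 (SE 0.38) for Phlda3, with edgeR adjusted p-values of 0.613 and 0.965. Without IEC-/- replicate 2 they were -1.12 and -0.79 (edgeR adjusted p = 0.0837 and 0.0550), and without IEC-/- replicate 1 they were -0.02 and 0.41. The ratio's 95% interval was 0.374 to 1.41 for Eda2r, which reaches below a 2-fold fall. That of 0.501 to 1.84 for Phlda3 leaves room for a change near 2-fold either way.

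Of the 3 targets that act in stress handling and RNA control, Sesn2 and Trp53inp1 had higher means in IEC-/-. Sesn2 (chromosome 4, 132492804 to 132510456) encodes sestrin 2, a stress protein that restrains the mTORC1 kinase and is also induced by ATF4. It had 20.2 and 23.1 CPM in IEC-/- tumours, against 18.1 and 16.1 CPM in IEC+/+ tumours. Trp53inp1 (chromosome 4, 11156441 to 11174379), an autophagy-linked p53 partner, had 438 and 436 CPM in IEC-/- tumours, against 344 and 410 CPM in IEC+/+ tumours. In these 2 genes both IEC-/- libraries lie above both IEC+/+ libraries, as they do for 24.0% of all genes. The log2 fold changes were 0.34 (SE 0.19, edgeR adjusted p = 0.448) for Sesn2 and 0.21 (SE 0.13, edgeR adjusted p = 0.495) for Trp53inp1. The ratio's 95% intervals were 0.912 to 1.75 for Sesn2 and 0.920 to 1.46 for Trp53inp1. Zmat3 (chromosome 3, 32334792 to 32365665), a zinc finger protein that binds RNA and affects splicing, had 84.4 and 117 CPM in IEC-/- tumours, against 109 and 103 CPM in IEC+/+ tumours, so that the IEC-/- libraries enclose the others (log2 fold change -0.07, SE 0.18).

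**Figure D2:**
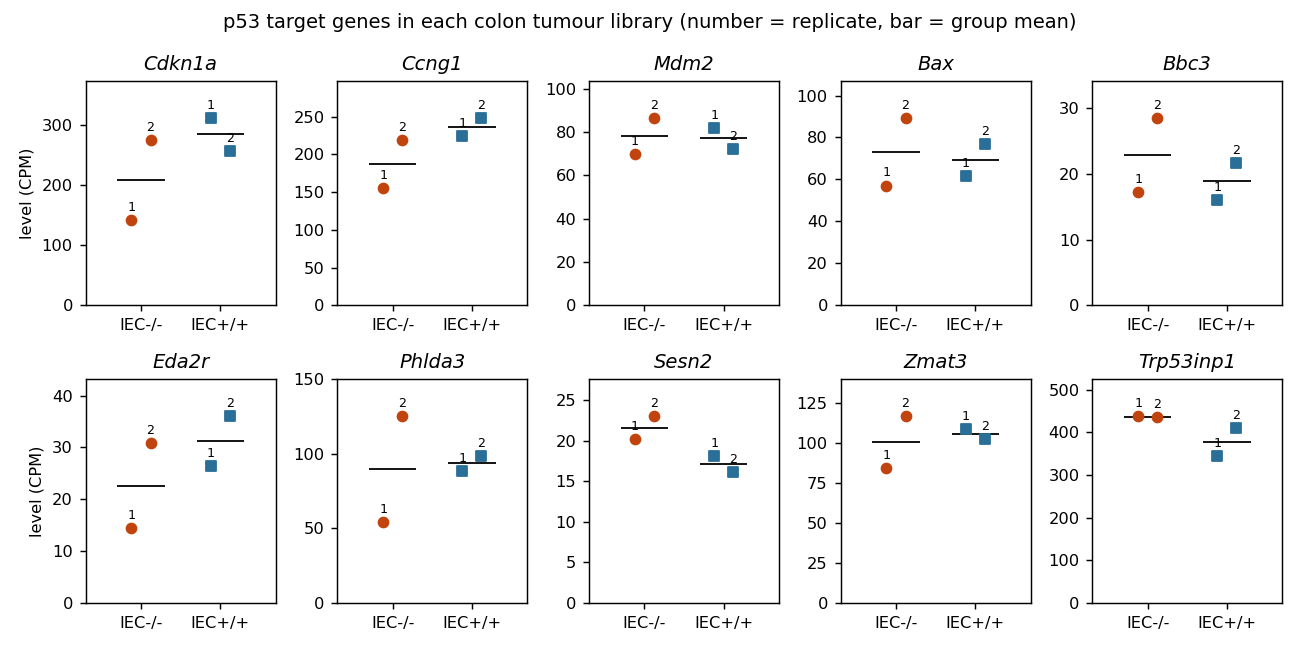
Level in CPM of each of the 10 p53 target genes, with IEC-/- libraries left, IEC+/+ libraries right, the replicate number at each point and a bar at the group mean. IEC-/- replicate 1 lies below replicate 2 for 9 of 10 genes, and the groups overlap for 7 of 10.

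**Figure D3:**
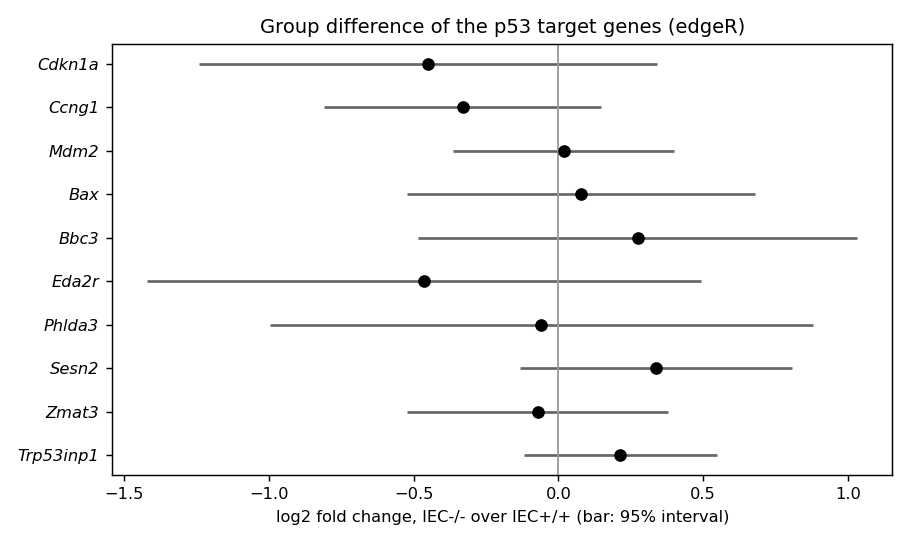
Log2 fold change of IEC-/- over IEC+/+ for the 10 p53 target genes with 95% intervals from the edgeR quasi-likelihood fit. The estimates lie between -0.46 and 0.34.

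Set per kilobase of exon, the targets fell into a higher and a lower group that kept apart in every library, with further gaps within the lower group. Lengths count every annotated exon base of a gene once, so the levels depend on that choice. Cdkn1a, Trp53inp1, Ccng1, Phlda3 and Bax had up to 87.4 CPM per kb and at least 34.95 CPM per kb over the 4 libraries, and each overlapped its neighbour in the order of mean level. Mdm2 followed at 13.8 to 17.0 CPM per kb, apart from Bax above it and from Bbc3 below it. Bbc3 and Zmat3 overlapped each other at 7.38 to 13.4 CPM per kb, and Sesn2 and Eda2r, the lowest, overlapped at 2.44 to 6.64 CPM per kb. In GENCODE M21, exons of Cdkn1a overlap a gene known by its clone over 273 bases and exons of Bax overlap the predicted gene Gm45808 over 192 bases, both on the minus strand. Neither partner is listed under that name among the 26214 symbols, so no level of either was available. How the counting treated shared exons and strand is not stated, so the Cdkn1a and Bax counts may hold reads of these stretches from either gene.

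For 8 of the 10 targets the fold between the IEC-/- libraries was larger than the fold between the groups, the exceptions being Sesn2 and Trp53inp1. The share of all genes for which this was so was not computed. A ratio of single libraries varies more than a ratio of group means, so this count is only a description. CPM levels in IEC-/- replicate 2 exceeded those in replicate 1 for 9 of 10 targets, where 50.3% of all genes tested did so, and by at least 1.5-fold for 5, where 12.1% of all genes did so. The 5 were Phlda3 (2.30-fold), Eda2r (2.15-fold), Cdkn1a (1.94-fold), Bbc3 (1.66-fold) and Bax (1.56-fold), which include all 4 cell death genes. Ccng1, Zmat3, Mdm2 and Sesn2 had 1.41-fold, 1.38-fold, 1.23-fold and 1.14-fold, and Trp53inp1 had 0.995-fold. The median was 1.49-fold over the 10 targets and 1.00-fold over all genes. IEC-/- replicate 1 was the lowest of the 4 libraries for 7 of 10 targets (25.3% of all genes) and IEC-/- replicate 2 the highest for 6 (27.7%). Between the IEC+/+ libraries, 6 of 10 targets were higher in replicate 2 (48.6% of all genes) and 0 by 1.5-fold (8.22% of all genes), with a median of 1.11-fold. These are single libraries set side by side after their values were seen, so they have no replicate check and no test.

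Proliferation genes were ordered the other way. All 12 on the list had lower CPM in IEC-/- replicate 2 than in replicate 1, with ratios of 0.533 to 0.953, where 49.7% of all genes were lower. Between the groups edgeR, DESeq2, the exact test and limma-voom each called 0 of the 12, none of which had an unadjusted edgeR p under 0.05, with a median log2 fold change of 0.00. Birc5, which encodes survivin and is repressed when p53 is active, had 32.3 and 27.5 CPM in IEC-/- tumours, against 36.1 and 35.9 CPM in IEC+/+ tumours. Plk1, a mitotic kinase gene, had 83.5 and 63.5 CPM in IEC-/- tumours, against 61.9 and 65.3 CPM in IEC+/+ tumours. Ccna2 and Cdk1, the genes of cyclin A2 and its kinase, had log2 fold changes of -0.19 and 0.13 between the groups. Squamous, plasma cell and neutrophil markers also differ between the IEC-/- libraries, and their part in this order was not tested.

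**Figure D4:**
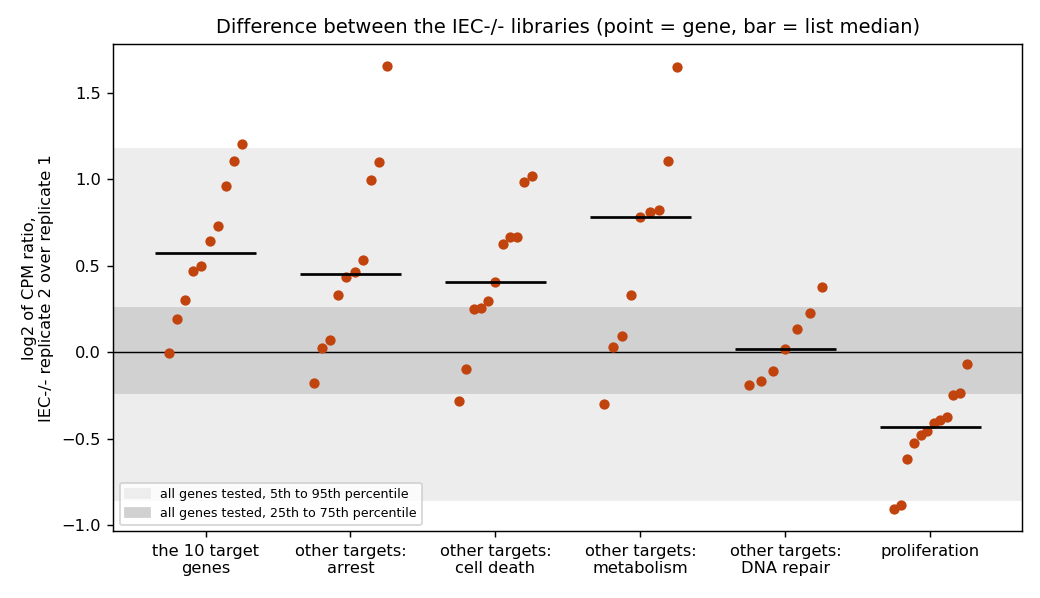
Log2 ratio of CPM in IEC-/- replicate 2 over IEC-/- replicate 1 for the 10 p53 target genes, 4 lists of other p53 targets and proliferation genes, with grey bands for all genes tested. Points of the target genes lie mostly above 0, those of the DNA repair targets lie around 0, and those of all 12 proliferation genes lie below 0.

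None of the 19 transcripts of p53 and its regulators passed the edgeR test between the groups. Trp53, the gene of p53 itself, had 140 and 129 CPM in IEC-/- tumours, against 111 and 128 CPM in IEC+/+ tumours (log2 fold change 0.17, SE 0.13, edgeR adjusted p = 0.588). Mdm4, the MDM2 relative that masks p53, had 244 and 223 CPM in IEC-/- tumours, against 216 and 221 CPM in IEC+/+ tumours, and Ppm1d, a phosphatase gene that p53 induces to end its own response, had 25.2 and 23.0 CPM in IEC-/- tumours and 21.0 and 20.3 CPM in IEC+/+ tumours. In all 3 both IEC-/- libraries lie, by little, above both IEC+/+ libraries, an order that 24.0% of all genes show. Trp53 did not follow the order of its targets, being lower in IEC-/- replicate 2 than in replicate 1.

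The p53 relative Trp63 and the upstream tumour suppressor Cdkn2a were high in 1 library. Trp63, the gene of p63, a factor of squamous and basal epithelium, had 0.0719 and 34.0 CPM in IEC-/- tumours, against 0 and 0.870 CPM in IEC+/+ tumours. Trp73, another p53 relative, had 0.360 and 1.68 CPM in IEC-/- tumours, against 0.0772 and 0.227 CPM in IEC+/+ tumours. Both IEC-/- libraries lie above both IEC+/+ libraries for Trp73, as for 24.0% of all genes. Its read counts were low, at 10 and 44 in IEC-/- and 2 and 6 in IEC+/+ replicates 1 and 2. Cdkn2a, whose ARF product restrains MDM2, had 20.6 and 57.7 CPM in IEC-/- tumours, against 22.3 and 21.2 CPM in IEC+/+ tumours. Trp63 and Cdkn2a are set by IEC-/- replicate 2, the library with the high squamous markers, and the edgeR adjusted p-values were 0.355 for Trp63, 0.285 for Trp73 and 0.441 for Cdkn2a. Atr, a damage-sensing kinase gene, had 31.7 and 26.6 CPM in IEC-/- tumours, against 20.1 and 24.4 CPM in IEC+/+ tumours. Without IEC-/- replicate 1, edgeR called Trp63 and Cdkn2a higher (adjusted p = 0.0246 and 0.0126), and without IEC-/- replicate 2 neither was called and Cdkn2a had a log2 fold change of -0.08. With all 4 libraries edgeR, DESeq2, the exact test and limma-voom each called 0 of the 19. Below an unadjusted edgeR p of 0.05 was 1 of them, where 16.6% of all genes were. The median log2 fold change of the 19 was 0.08.

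A further 37 p53 targets were taken from 4 lists. EdgeR called 0 of 37, and the median log2 fold change was -0.12. The unadjusted edgeR p was under 0.05 for 2 higher and 3 lower genes of the 37, and for 16.6% of all genes. DESeq2 called 2 lower, near its 7.77% over all genes, the exact test 1 lower (5.30% of all genes in either direction) and limma-voom 0. In IEC-/- tumours 16 had higher means and 21 lower means, and levels did not overlap between groups for 8 above and 7 below, where 24.0% and 24.1% of all genes did so. Between the IEC-/- libraries, 30 of 37 were higher in replicate 2, where 50.3% of all genes were. By at least 1.5-fold 13 were higher, where 12.1% of all genes were, and the median of the 37 was 1.26-fold. By class, 9 of 10 arrest genes, 9 of 11 cell death genes, 8 of 9 metabolism and secretion genes and 4 of 7 DNA repair genes were higher in replicate 2, where 50.3% of all genes were. These counts rest on single libraries, and differences between the classes were not tested.

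Among the arrest targets, Sfn, which encodes the 14-3-3 sigma protein of epithelial cells, had 102 and 204 CPM in IEC-/- tumours, against 370 and 298 CPM in IEC+/+ tumours. Both IEC-/- libraries are below both others (log2 fold change -1.13, SE 0.33, edgeR adjusted p = 0.197), alongside the lower epithelial markers, and DESeq2 called it lower. Without IEC-/- replicate 2 edgeR did so too (-1.71, adjusted p = 0.0110). Ypel3, a growth suppressor gene, had 41.8 and 52.5 CPM in IEC-/- tumours, against 32.7 and 31.7 CPM in IEC+/+ tumours (0.55, edgeR adjusted p = 0.184). Gadd45a, a damage-inducible arrest gene, and Tob1, an antiproliferative gene of the BTG family, had log2 fold changes of -0.30 and -0.18.

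Among the cell death targets, Pmaip1 had the smallest p of the 37. It encodes NOXA, a BH3-only protein that neutralises MCL1, and had 34.8 and 28.6 CPM in IEC-/- tumours, against 62.2 and 54.7 CPM in IEC+/+ tumours. The groups are well apart, and in contrast to most targets IEC-/- replicate 2 is the lower of its pair (log2 fold change -0.88, SE 0.15, edgeR adjusted p = 0.0731). DESeq2 and the exact test called it lower, and so did edgeR without IEC-/- replicate 1 (adjusted p = 0.0317). Tnfrsf10b, the gene of the TRAIL death receptor, had 18.4 and 21.9 CPM in IEC-/- tumours, against 31.1 and 26.3 CPM in IEC+/+ tumours (-0.51, edgeR adjusted p = 0.264). Perp, a desmosomal membrane protein gene also driven by p63, had 148 and 234 CPM in IEC-/- tumours and 309 and 233 CPM in IEC+/+ tumours, and Dram1, a lysosomal autophagy gene, had a log2 fold change of 0.59.

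Among the metabolism and secretion targets, Abhd4, a lipase gene, had 126 and 135 CPM in IEC-/- tumours, against 104 and 98.3 CPM in IEC+/+ tumours (log2 fold change 0.37, SE 0.12, edgeR adjusted p = 0.225). Ak1, an adenylate kinase gene, Sesn1, the p53-induced relative of Sesn2, and Dcxr, a reductase gene of sugar metabolism, had 0.95, 0.34 and -0.20, and Ak1 had 0.30 without IEC-/- replicate 2. The DNA repair targets Rrm2b, Xpc, Pcna and Polk had 0.34, 0.32, -0.18 and -0.24, and 0 of the 7 repair genes had an unadjusted p under 0.05. Rrm2b supplies nucleotides for repair, Xpc recognises bulky lesions, Pcna clamps polymerases to DNA and Polk copies past damage.

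**Figure D5:**
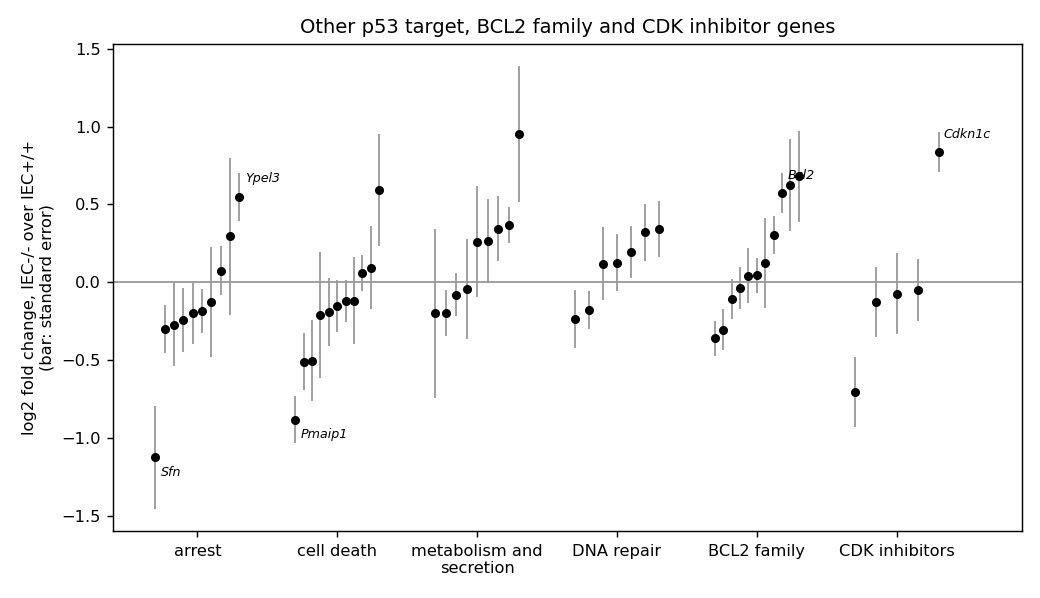
Log2 fold change of IEC-/- over IEC+/+ with its standard error for other p53 targets by class, BCL2 family genes and CDK inhibitors, with 1 point per gene and names where the edgeR adjusted p was under 0.2. Sfn at -1.13 and Pmaip1 at -0.88 are the lowest points and Ak1 at 0.95 and Cdkn1c at 0.83 the highest.

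Transcripts of genes whose proteins work beside BAX and p21 were counted in the same way. The unadjusted edgeR p was under 0.05 for 2 higher and 1 lower of 11 other BCL2 family genes, and for 16.6% of all genes. Of the 11, edgeR called 0 and DESeq2 called 1 higher, where DESeq2 called 7.77% of all genes in either direction. The gene DESeq2 called was Bcl2, the founding survival gene, at 90.0 and 77.5 CPM in IEC-/- tumours, against 55.0 and 57.7 CPM in IEC+/+ tumours (log2 fold change 0.57, SE 0.13, edgeR adjusted p = 0.124). Bak1, the pore-forming relative of Bax, had 105 and 108 CPM in IEC-/- tumours, against 140 and 133 CPM in IEC+/+ tumours (-0.36, edgeR adjusted p = 0.218). Bcl2l11, the gene of the BH3-only protein BIM, and the survival gene Mcl1 had 0.30 and -0.31.

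Of 5 other CDK inhibitor genes edgeR called 0, with 1 higher and 1 lower below an unadjusted p of 0.05, where 16.6% of all genes were. DESeq2 and the exact test each called 1 higher, where they called 7.77% and 5.30% of all genes in either direction. Cdkn1c, which encodes p57, had 89.4 and 97.1 CPM in IEC-/- tumours, against 48.9 and 55.7 CPM in IEC+/+ tumours (log2 fold change 0.83, SE 0.13, edgeR adjusted p = 0.0621), and was the gene they called. EdgeR called it too without IEC-/- replicate 1 (adjusted p = 0.0383). Cdkn2b, which encodes p15, had 24.3 and 35.6 CPM in IEC-/- tumours, against 54.2 and 43.6 CPM in IEC+/+ tumours (-0.71, edgeR adjusted p = 0.225), and was called lower without IEC-/- replicate 2 (-1.01, edgeR adjusted p = 0.0493). Cdkn2c and Cdkn2d, genes of the INK4 family, had -0.13 and -0.07.

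Of 7 relatives and partners of the 10 targets, 2 were higher in IEC-/- replicate 2 than in replicate 1, where 50.3% of all genes were. Ccng2, the cyclin G paralog and a target of FOXO factors, had 53.8 and 53.3 CPM in IEC-/- tumours, against 101 and 75.7 CPM in IEC+/+ tumours (log2 fold change -0.72, SE 0.17, edgeR adjusted p = 0.129), and was called lower by DESeq2 and the exact test. Phlda2, a growth-restraining relative of Phlda3, had 3.56 and 3.66 CPM in IEC-/- tumours, against 6.83 and 7.19 CPM in IEC+/+ tumours (-0.96, edgeR adjusted p = 0.197). Eda, the ectodysplasin gene that supplies the ligand of EDA2R, had 1.76 and 3.70 CPM in IEC-/- tumours, against 1.24 and 0.832 CPM in IEC+/+ tumours, and Edar, the related receptor, 1.40 and 1.33 CPM in IEC-/- tumours and 0.347 and 0.681 CPM in IEC+/+ tumours. The log2 fold change of Eda was 1.40, and 0.76 without IEC-/- replicate 2. Of the 7 relatives edgeR called 0, with 1 higher and 2 lower below an unadjusted p of 0.05, where 16.6% of all genes were. ATF4 targets, set beside Sesn2, had 0 of 9 called by each of edgeR, DESeq2, the exact test and limma-voom, 0 below an unadjusted edgeR p of 0.05 and a median log2 fold change of -0.06. In that list Asns, Ddit4, Ddit3 and Chac1 had -0.41, 0.17, -0.28 and -0.39, beside 0.34 for Sesn2.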

How the data were processed

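Polyadenylated RNA was extracted with TRIzol and sequenced as paired reads from NEBNext libraries, per the labels' protocols. The deposited values are raw read counts per gene symbol; mm10 is the build, and TopHat, edgeR and limma the tools, in the submitters' processing notes, and how reads were counted is not stated. The test was that of edgeR 4.0.16 under R 4.3.3 (TMM factors 0.955 to 1.05, default expression filter, quasi-likelihood F-test, Benjamini-Hochberg over 16637 genes), which was tested on simulated data. SE was derived from the F statistic, and intervals cover 95%. Limma 3.58.1 and DESeq2 1.42.0 gave alternatives. With 2 libraries per group, the chi-square per degree of freedom between libraries of a group was 29.9 and 58.8, above the counting noise of repeat runs of 1 library; whether libraries share a tissue is not known. The 10 genes and all lists were chosen with earlier results of these data known. Named were the 10, Trp53, Mdm4 and Ppm1d, in each non-marker list genes called and up to 4 with the smallest p, and in marker lists genes called. Exon lengths come from GENCODE M21, coordinates and sequences from RefSeq on GRCm38.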

Additional observations from a re-analysis of the deposited data

How the results depend on the processing

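Of 110 refits of the 10 targets (11 alternatives each), 99 kept the direction and the side of the threshold, 10 changed direction and 1 passed (Cdkn1a without IEC-/- replicate 2). The changes of direction all concerned values that had not passed. With library totals only, which moves the median of all genes to 0.12, Phlda3 had 0.045 and Zmat3 0.036. Leaving out 1 library gave -0.15 to 0.15 for Mdm2, -0.28 to 0.35 for Bax, -0.14 to 0.58 for Bbc3, -0.79 to 0.41 for Phlda3, -0.33 to 0.14 for Zmat3, -1.12 to -0.02 for Eda2r and -1.01 to -0.06 for Cdkn1a. The median over the 10 targets then ran from -0.31 (without IEC-/- replicate 2) to 0.18 (without IEC-/- replicate 1), and that of the other 37 targets from -0.28 to 0.074 for the same 2 libraries. Targets called ran from 0 to 1, and other targets called from 0 to 2 (Sfn without IEC-/- replicate 2, and Psrc1 and Pmaip1 without IEC-/- replicate 1). Of the other targets, 1 was called without the filter on low counts (Pmaip1; Cdkn1c was then called too, adjusted p = 0.0386), 2 by DESeq2 and 1 by the exact test. Over all genes the 147 calls became 83 with library totals only, 376 without the filter, 1293 with DESeq2, 882 with the exact test, 78 with limma-voom and 0 to 729 with 1 library left out; the cause was not tested. The count of targets higher in IEC-/- replicate 2 was 9 and the count at least 1.5-fold higher 5 with TMM, with library totals only and with RLE factors, alternatives chosen after seeing the data. Replicate numbers are shared between the groups, but the labels do not say that they pair libraries. With the replicate number as a block 211 genes were called, 0 of the 10 targets and 0 of the other 37, Trp63 was called higher (adjusted p = 0.0310), and deviations of same-numbered libraries from their group means correlated at 0.160. With 2 libraries a group, only large differences could be called. The 95% intervals are not adjusted for the number of genes tested and so understate the difference needed for a call. Pmaip1 at -0.88 and Cdkn1c at 0.83 were not called (edgeR quasi-likelihood adjusted p = 0.0731 and 0.0621).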
